A study of Mus musculus with 12 samples.

Results

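Interferon-induced genes were read in mouse hair follicle stem cells with and without the transcription factor Foxc1. The 9 genes were chosen by symbol, namely Irf1, Irf7, Gbp2, Gbp3, Ifit1, Ifit2, Ifit3, Isg15 and Usp18, out of 23735 gene models, and each was found on 1 row of every table. In build mm9 the 3 IFIT genes lie together on chromosome 19, with Ifit1 at chr19:34715379-34724499, Ifit2 at chr19:34625184-34651024 and Ifit3 at chr19:34658019-34663472. Gbp2 (chr3:142283627-142300972, a model that also holds Mir6381) and Gbp3 (chr3:142223016-142236176) are neighbours on chromosome 3. Isg15 lies at chr4:155573533-155574927, Usp18 at chr6:121195924-121220935, Irf1 at chr11:53583516-53591876 and Irf7 at chr7:148449082-148452323. Stem cells had been sorted by flow cytometry from dorsal skin, and mRNA was sequenced in 12 libraries that form 7 groups. Growth-phase (anagen) cells came from tamoxifen-treated males at postnatal day 30 of a Black Swiss/C57BL/6 mix, with 2 Sox9CreER inducible knockouts (iKO) and 2 animals labelled FOXC1-Sox9CreER-heterozygous (Het). The Het animals carried the Cre driver and received tamoxifen as well, so they are not wild type. The second telogen, a resting phase, was sampled in 2 Black Swiss conditional knockouts made with K14Cre (cKO), in 2 Sox9CreER iKO males of the mixed strain at day 60, also given tamoxifen, and in 2 Black Swiss wild-type animals (WT). The cKO and WT groups each held 1 male (day 42) and 1 female (day 46). Single libraries from Shh-Het females of an Agouti strain represented anagen substage II at about day 26 and first telogen at about day 23, and the titles of both call them WT. Both drivers act in skin epithelium, K14Cre from development onwards and Sox9CreER only after tamoxifen.

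Interferons are secreted alarm cytokines that bind surface receptors and, through JAK kinases and STAT factors, switch on a shared set of defence genes. STAT and IRF proteins reach those genes at short promoter sequences, the interferon-stimulated response element (ISRE) for type I and III interferon and the gamma-activated site (GAS) for interferon-gamma. In skin the same genes are known from antiviral defence, wound repair and immune surveillance, and stem cells of several tissues keep some of them active without infection.

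Promoters are shown for 3 genes called in anagen (Gbp2, Irf1 and Ifit2) and for 2 others (Ifit1 and Isg15), since they differ in which motif their windows hold. The letters GAAANNGAAA, the core of the ISRE, were searched on both strands, and TTCNNNGAA, the GAS, is its own reverse complement. RefSeq windows on build GRCm38.p6 ran from 250 bases before to 50 bases after each transcript start and were found for 8 of the 9 genes, all but Usp18. Printed 5′ to 3′ on the gene's strand are the 250 bases before the start, with motif matches in capitals.
Gbp2 (chr3:142620413-142620662, plus strand): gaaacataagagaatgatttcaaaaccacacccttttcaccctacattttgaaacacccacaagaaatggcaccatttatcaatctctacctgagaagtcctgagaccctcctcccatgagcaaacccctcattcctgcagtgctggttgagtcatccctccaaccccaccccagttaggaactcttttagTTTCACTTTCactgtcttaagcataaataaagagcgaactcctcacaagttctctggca
Ifit1 (chr19:34640639-34640888, plus strand): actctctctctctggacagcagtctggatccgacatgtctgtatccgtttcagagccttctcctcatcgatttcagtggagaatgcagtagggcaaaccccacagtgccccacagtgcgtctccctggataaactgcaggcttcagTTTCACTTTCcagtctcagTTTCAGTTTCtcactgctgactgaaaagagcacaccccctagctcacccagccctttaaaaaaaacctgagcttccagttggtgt
Isg15 (chr4:156200819-156201068, minus strand): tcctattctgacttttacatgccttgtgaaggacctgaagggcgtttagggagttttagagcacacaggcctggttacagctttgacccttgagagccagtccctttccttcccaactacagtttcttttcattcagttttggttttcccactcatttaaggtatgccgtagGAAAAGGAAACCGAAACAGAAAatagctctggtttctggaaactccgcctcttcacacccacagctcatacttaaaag
Irf1 (chr11:53769764-53770013, plus strand): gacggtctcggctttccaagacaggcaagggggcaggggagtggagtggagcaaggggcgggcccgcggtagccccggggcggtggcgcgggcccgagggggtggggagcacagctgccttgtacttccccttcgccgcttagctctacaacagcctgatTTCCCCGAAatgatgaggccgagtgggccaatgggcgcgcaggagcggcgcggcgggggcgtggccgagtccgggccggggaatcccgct
Ifit2 (chr19:34550444-34550693, plus strand): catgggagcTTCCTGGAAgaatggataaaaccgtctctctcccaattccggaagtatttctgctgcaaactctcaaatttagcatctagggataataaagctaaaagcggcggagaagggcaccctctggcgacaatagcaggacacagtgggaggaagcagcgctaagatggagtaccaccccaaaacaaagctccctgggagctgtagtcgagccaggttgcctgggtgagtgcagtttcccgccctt
The ISRE core was in 5 of the 8 genes with a window, against 3.99% of all 27025 genes with one and 3.44% of 32851 windows. Gbp2 has 1 match 59 bases before its start, Ifit1 has 2 at 104 and 85 bases, and Isg15 has 3 that overlap each other, at 78, 72 and 66 bases. Gbp3 has 2 overlapping matches, at 45 and 39 bases, and Ifit3 has 2, at 156 and 122 bases. Irf1 and Ifit2 each have 2 windows and no ISRE core in either, while the first window, printed here, holds a GAS 90 bases before the start in Irf1 and 241 bases before it in Ifit2. The GAS letters were in 8.30% of all windows and in 9.55% of all genes with one, so such a match is more common than an ISRE core. Irf7 matched neither set of letters in its window. These matches describe letters and were not measured as bound sites. Bases outside the windows were not searched, so a gene without a match here may hold one elsewhere.

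Expression is given as FPKM, fragments scaled to transcript length and library size, with 1 value per group that the authors pooled over its libraries. No spread between libraries can therefore be given for a level, and sequencing depth is unknown. A gene was called where the q-value in the authors' deposited table was below 0.05, and only called genes are said to have risen or fallen. Approximate standard errors (SE) were obtained by dividing each log2 fold by the deposited statistic. Foxc1 was 1.40 FPKM in anagen iKO against 23.9 in Het cells, 1.59 in telogen cKO against 26.5 in WT cells, and 3.17 in telogen iKO against 27.5 in WT cells. Of 10 stem cell markers, Lhx2 ranged over 149 to 257 FPKM, Sox9 over 59.5 to 132, Cd34 over 129 to 883 and Nfatc1 over 19.7 to 80.0 across the 7 groups. The stem cell keratin Krt5 was listed at 0 in 5 groups and Krt15 in 3, although both are at least 3294 FPKM wherever a value is given, so a 0 in these tables can be a missing estimate. The first telogen library stood apart from the other groups: 21878 gene models were above 0 there, against 17388 to 17877 elsewhere. Summed fibroblast markers reached 2168 FPKM in it and 1038 in the anagen II library, against 13.8 to 105 in the 5 replicated groups. Over the 5 replicated groups, summed markers ran from 7.55 to 12.6 FPKM for myeloid cells, from 0.336 to 7.30 for endothelium and from 26.8 to 48.0 for melanocytes. In bulk samples, fewer cells of a type and less RNA per cell cannot be told apart.

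The levels of the 9 genes spanned several orders of magnitude in the joint table of all groups, which serves for all levels across stages. Irf1, a transcription factor induced most strongly by interferon-gamma, was 7.78 FPKM in anagen iKO, 3.86 in anagen Het, 20.1 in telogen cKO, 33.2 in telogen iKO, 15.0 in telogen WT, 3.78 in anagen II and 9.22 in first telogen cells. All 3 second telogen groups were above all 3 anagen groups, with 8.80-fold between the highest and the lowest. Irf7, the factor that amplifies type I interferon production, was 4.41 in anagen iKO, 3.31 in anagen Het, 2.91 in telogen cKO, 3.49 in telogen iKO, 2.64 in telogen WT, 13.0 in anagen II and 1.64 FPKM in first telogen cells. Its 5 replicated groups lay close together, and the extremes were the 2 single libraries.

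Gbp2, a guanylate-binding GTPase that acts on pathogen-containing vacuoles, was 2.07 FPKM in anagen iKO, 0.593 in anagen Het, 10.2 in telogen cKO, 3.87 in telogen iKO, 3.22 in telogen WT, 0.721 in anagen II and 2.40 in first telogen cells. Telogen cKO cells were highest and anagen Het cells lowest, 17.2-fold apart. Gbp3, a related GTPase, stayed under 1 FPKM in every group, at 0.104 to 0.793.

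The IFIT proteins bind foreign RNA and hold back its translation. Ifit1 ranged over 0.148 to 0.832 FPKM, Ifit2 over 0.232 to 1.14 FPKM and Ifit3 over 0.00955 to 0.886 FPKM. Ifit2 passed 1 FPKM only in anagen II cells, and Ifit1 and Ifit3 in no group. Ifit3 was above 0.05 FPKM only in the first telogen library, and its transcript is 97.8% identical to that of Ifit3b over 1700 bases, so its reads may be split. The other close copies were less alike: Gbp2 and Gbp2b 83.8%, Gbp3 and Gbp7 81.5%, and Ifit1 and Ifit1bl2 84.5% over the aligned bases.

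Isg15 encodes a ubiquitin-like protein that is attached to other proteins during an interferon response. It was the most even of the 9, with 2.84 FPKM in anagen iKO, 1.74 in anagen Het, 4.05 in telogen cKO, 2.28 in telogen iKO, 2.11 in telogen WT, 4.04 in anagen II and 5.09 in first telogen cells. Usp18 removes Isg15 from proteins and damps signalling at the type I interferon receptor. Its levels were 1.38 FPKM in anagen iKO, 2.19 in anagen Het, 5.69 in telogen cKO, 9.10 in telogen iKO, 13.8 in telogen WT, 3.20 in anagen II and 2.20 in first telogen cells. The order ran opposite to that of Gbp2 within second telogen, with WT cells highest and cKO cells lowest. Over the 5 replicated groups, neighbours in the order of levels were called different in 8 of 29 tested pairs, 3 for Irf1, 3 for Usp18 and 2 for Gbp2, against 7.16% of such pairs over all genes. For Irf7, Isg15, Ifit1, Ifit2 and Gbp3 no tested neighbours were called, and for Ifit3 none were tested.

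**Figure D1:**
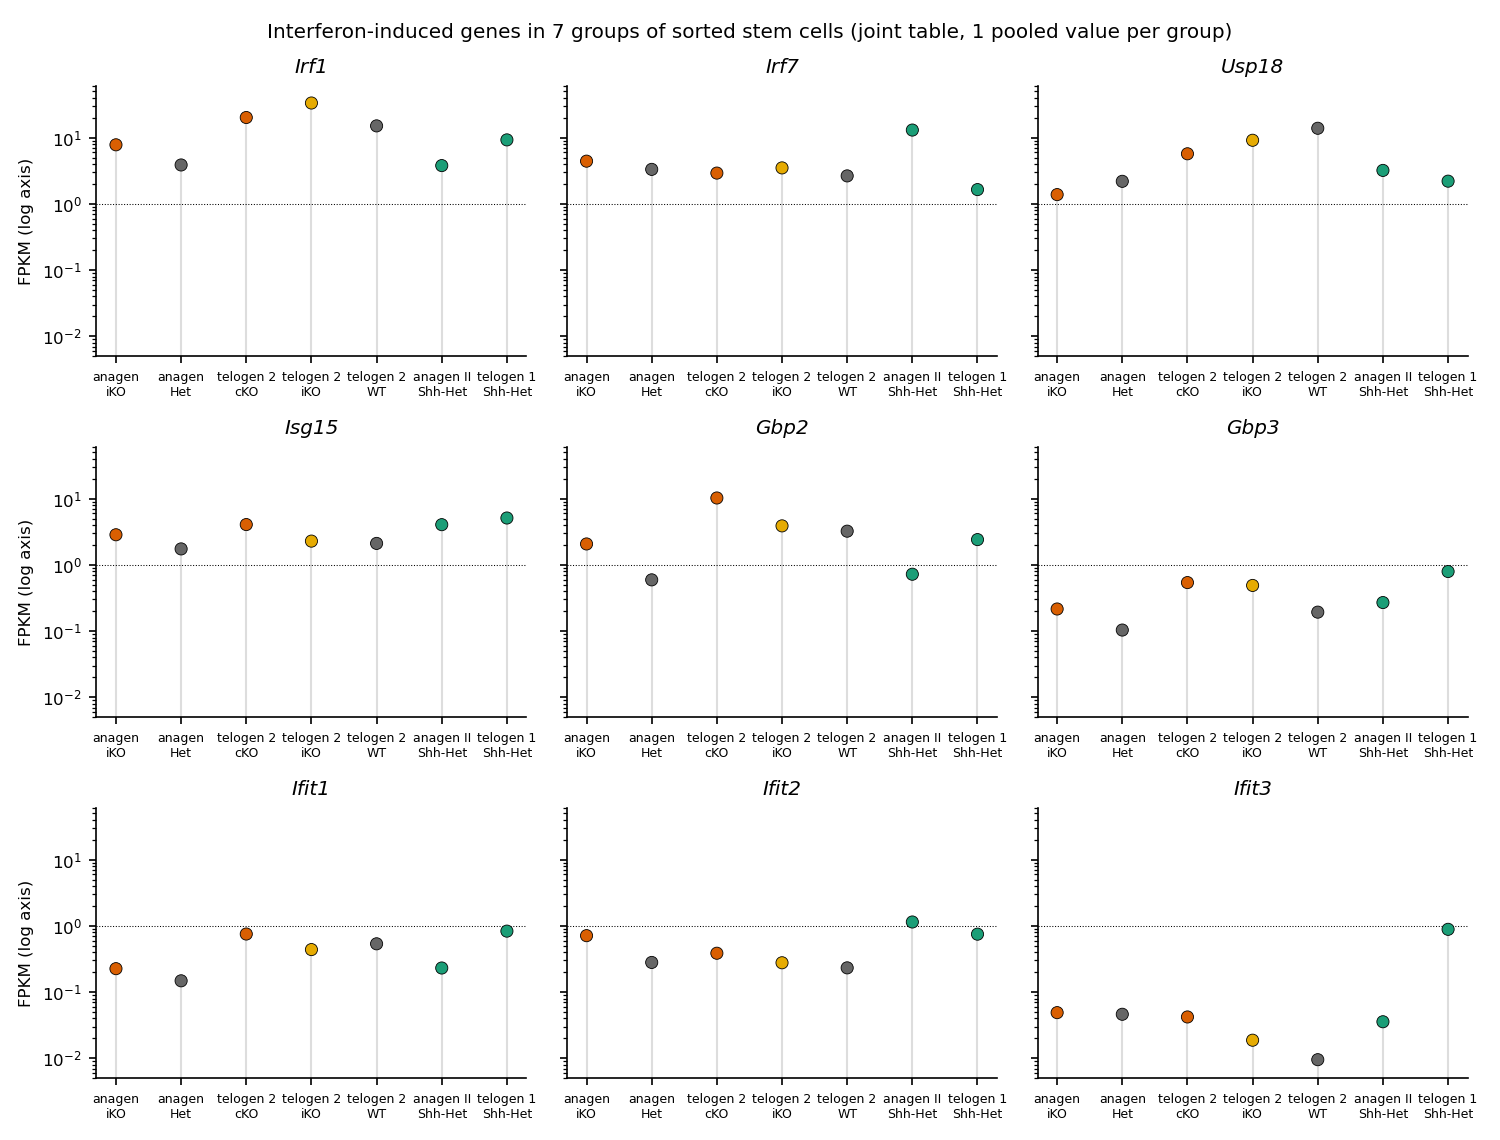
FPKM (log axis) of the 9 genes in the 7 groups, 1 point per group as pooled by the authors, with a dotted line at 1 FPKM. Irf1 and Usp18 sat higher in the 3 second telogen groups than in anagen, Gbp2 peaked at 10.2 in telogen cKO cells, and Gbp3, Ifit1 and Ifit3 stayed under 1 FPKM throughout.

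In growing-phase stem cells, Gbp2, Ifit2 and Irf1 rose without Foxc1. These were 3 of the 6 genes that the authors tested, all higher, against 10.3% of all 13716 tested genes called (5.18% higher and 5.08% lower). Ifit2 was not called at q below 0.01, and it falls outside a minimum of 1 FPKM. Gbp2 was 2.19 FPKM in iKO against 0.629 in Het cells, 3.48-fold higher, with a log2 fold of 1.80 (SE 0.51) and q = 0.00106 in the authors' deposited table. Ifit2 was 0.753 in iKO against 0.297 FPKM in Het cells, 2.53-fold higher, with a log2 fold of 1.34 (SE 0.56) and q = 0.0264. Both Ifit2 levels were under 1 FPKM. Irf1 was 8.24 in iKO against 4.09 FPKM in Het cells, 2.01-fold higher, with a log2 fold of 1.01 (SE 0.34) and q = 0.00106.

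Markers of several cell types also differed between the anagen groups, and their part in the interferon gene values was not tested. The stem cell markers Cd34 (244 in iKO, 432 FPKM in Het) and Nfatc1 (28.2 in iKO, 41.9 FPKM in Het) fell. The 7 fibroblast markers summed to 56.0 in iKO against 105 FPKM in Het cells, with 3 collagen genes called lower. The 5 endothelial markers summed to 4.49 in iKO against 7.30 FPKM in Het cells, with Vwf and Tek called lower, and the melanocyte gene Mitf fell, at 2.15 in iKO against 7.21 FPKM in Het cells. Of the Langerhans and dendritic cell list Cd74 alone rose, at 18.6 in iKO against 7.53 FPKM in Het cells, while the other 6 genes summed to 14.8 in iKO against 12.5 FPKM in Het cells.

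Isg15 and its protease Usp18 did not pass the test in anagen. Isg15 had 3.01 FPKM in iKO against 1.84 in Het cells (log2 fold 0.71, 95% interval -0.19 to 1.61, q = 0.38). Usp18 had 1.46 FPKM in iKO against 2.32 in Het cells (log2 fold -0.67, interval -1.54 to 0.21, q = 0.269), the only one of the 9 with the smaller value in iKO cells. Irf7 had 4.67 FPKM in iKO against 3.51 in Het cells (log2 fold 0.41, q = 0.417). Gbp3 (0.228 in iKO, 0.110 in Het), Ifit1 (0.239 in iKO, 0.157 in Het) and Ifit3 (0.0519 in iKO, 0.0490 in Het) were not tested by the authors. On the log2(FPKM + 1) scale, which understates low genes, the median over the 9 genes was 0.33, beside -0.02 over all tested genes.

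In resting-phase stem cells, Gbp2 rose and Usp18 fell with the K14Cre knockout. They were 2 of 8 tested genes, against 6.62% of all 13551 tested genes (3.75% higher and 2.87% lower). Among markers of other cells Col1a1 was called higher, while the other 6 fibroblast markers summed to 11.9 in cKO against 13.3 FPKM in WT cells, and Cd68 and Mitf were called lower. Their part in these values was not tested. Gbp2 was 9.79 FPKM in cKO against 3.10 in WT cells, 3.15-fold higher, with a log2 fold of 1.66 (SE 0.43) and q = 0.00159 in the authors' deposited table. Usp18 was 5.47 FPKM in cKO against 13.3 in WT cells, a 2.43-fold decrease (log2 fold -1.28, SE 0.37) with q = 0.00159. Gbp2 and the Isg15 protease therefore moved in opposite directions in the same cells.

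Gbp3 was close to the threshold. It had 0.518 FPKM in cKO against 0.186 in WT cells, 2.78-fold, with q = 0.215, while q was 0.039 for the same groups in the joint table, where q was adjusted over all 21 comparisons together. Irf1, called in anagen, had 19.3 FPKM in cKO against 14.5 in WT cells (log2 fold 0.41, interval -0.29 to 1.12, q = 0.522). Isg15 had 3.89 FPKM in cKO against 2.03 in WT cells (log2 fold 0.94, interval -0.10 to 1.98, q = 0.403). Both intervals include 0. Ifit2 had 0.370 in cKO against 0.224 FPKM in WT cells, with q = 0.68. Ifit1 (0.723 in cKO, 0.514 in WT) and Irf7 (2.80 in cKO, 2.54 in WT) had q-values of 0.831 and 0.973. Ifit3 was not tested, at 0.0406 in cKO and 0.00913 FPKM in WT cells. The median over the 9 genes was 0.19 on the log2(FPKM + 1) scale, beside 0.00 over all tested genes.

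**Figure D2:**
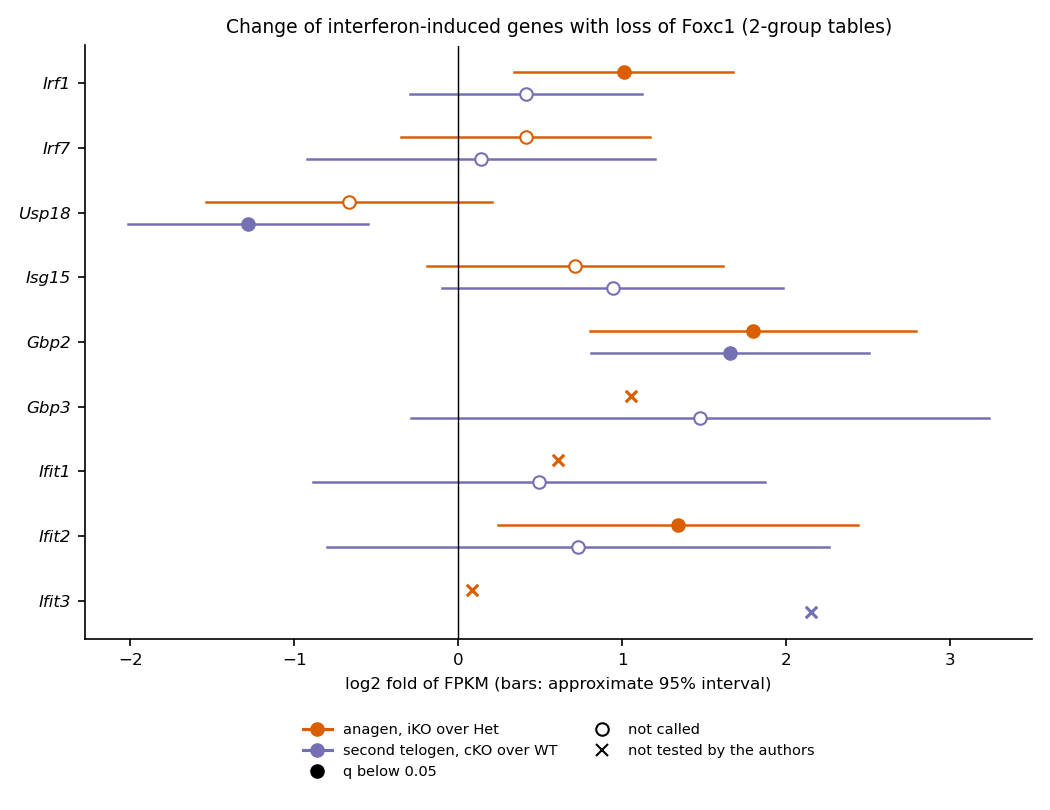
Log2 fold of FPKM for each of the 9 genes, iKO over Het in anagen (orange) and cKO over WT in second telogen (purple), with bars for the approximate 95% interval. Filled points have a q below 0.05 and crosses were not tested by the authors. Gbp2 lay at 1.80 and 1.66, the one gene filled in both, and Usp18 lay left of 0 in both, at -0.67 and -1.28.

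Whether the knockout effect differed between stages was tested gene by gene from both log2 folds. None of the 6 genes tested in both tables differed (z test of the difference with Benjamini-Hochberg adjustment over 13033 genes), and none had an unadjusted p below 0.05. Over all genes, 0.990% were called and 4.40% had such a p. The second telogen minus anagen difference was -0.14 for Gbp2, with a 95% interval of -1.45 to 1.17. For Irf1 it was -0.60 (-1.57 to 0.38) and for Usp18 -0.62 (-1.75 to 0.52). For Ifit2 it was -0.61 (-2.50 to 1.27), for Isg15 0.23 (-1.15 to 1.61) and for Irf7 -0.27 (-1.57 to 1.03). The intervals span more than a 2-fold change in either direction for these 3 genes and Gbp2, so a stage difference of that size is not excluded by these data. Driver, strain, age, sex and control genotype also differed between the stages.

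The inducible knockout in second telogen had a different set of calls from the conditional one. Irf1 rose, at 33.2 FPKM in iKO against 15.0 in WT cells, 2.21-fold, with a log2 fold of 1.15 (SE 0.30) and q = 0.000444 in the authors' deposited table. Usp18 fell, at 9.10 FPKM in iKO against 13.8 in WT cells, a 1.52-fold decrease (log2 fold -0.60, SE 0.30) with q = 0.0455. That call was lost when the deposited p was adjusted within this comparison alone (0.0899). These were 2 of 8 tested genes, against 12.9% of all tested genes (7.01% higher and 5.88% lower), and the WT libraries are those of the cKO comparison.

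Gbp2, at 3.87 FPKM in telogen iKO against 3.22 in WT cells, was not called (log2 fold 0.27, interval -0.52 to 1.05, q = 0.549). Gbp3 had 0.489 in iKO against 0.193 FPKM in WT cells, with q = 0.0656. The iKO and WT groups differed in Cre driver, strain, age, tamoxifen and, for 1 of the 2 WT animals, sex. None of these can be told apart from the knockout here.

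Set directly against each other, cKO and iKO cells of second telogen differed in 3 of 8 tested genes, against 14.9% of all tested genes (7.35% higher and 7.53% lower), a comparison made after the values had been seen. Gbp2 was 10.2 FPKM in cKO against 3.87 in iKO cells, 2.64-fold higher, with a log2 fold of 1.40 (SE 0.36) and q = 0.000444. Irf1 was 20.1 in cKO against 33.2 FPKM in iKO cells, with a log2 fold of -0.73 (SE 0.29) and q = 0.00316. Usp18 was 5.69 in cKO against 9.10 FPKM in iKO cells, with a log2 fold of -0.68 (SE 0.33) and q = 0.0395, a call lost on adjustment within the comparison (0.0693). The Langerhans and dendritic cell markers, 7 of 7 found, summed to 121 FPKM in cKO, 143 in iKO and 104 in WT cells, and their part in these values was not tested.

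Across stages, where many genes differ, several of the 9 genes had larger folds. In controls, Usp18, Gbp2, Irf1 and Ifit1 rose in second telogen, 4 of 7 tested genes, against 25.4% of all tested genes (13.5% higher). The 2 control groups also differed in genotype, Cre driver, tamoxifen, strain, age and, for 1 WT animal, sex. None of these can be told apart from stage. Usp18 was 13.8 FPKM in telogen WT against 2.19 in anagen Het cells, 6.32-fold higher (log2 fold 2.66, SE 0.38). Gbp2 was 3.22 in telogen WT against 0.593 FPKM in anagen Het cells, 5.43-fold higher (log2 fold 2.44, SE 0.55). Irf1 was 15.0 in telogen WT against 3.86 FPKM in anagen Het cells, 3.89-fold higher (log2 fold 1.96, SE 0.37). These 3 had q = 0.000444 in the authors' deposited table. Ifit1, the RNA-binding effector with 2 ISRE cores printed above, was 0.536 in telogen WT against 0.148 FPKM in anagen Het cells, 3.62-fold higher, with q = 0.0176. It was not called at q below 0.01, and both values are under 1 FPKM.

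Within the inducible knockout, 4 of 8 tested genes differed between second telogen and anagen, against 33.2% of all tested genes (17.6% higher and 15.5% lower). Age differed with stage, day 60 against day 30, and these cannot be told apart. Usp18 was 9.10 FPKM in telogen against 1.38 in anagen iKO cells, 6.61-fold higher (log2 fold 2.72, SE 0.42). Irf1 was 33.2 in telogen against 7.78 FPKM in anagen iKO cells, 4.27-fold higher (log2 fold 2.10, SE 0.32). Both folds were within 1 SE of those in controls, although the difference was not tested. Gbp2 was 3.87 in telogen against 2.07 FPKM in anagen iKO cells, 1.87-fold higher, with q = 0.0178. Its log2 fold of 0.91 (SE 0.43) was smaller than the 2.44 (SE 0.55) in controls, and that difference was not tested either. Ifit2 fell, at 0.277 in telogen against 0.711 FPKM in anagen iKO cells, 2.56-fold lower, with q = 0.0155. Irf7 and Isg15 were called in neither stage comparison, with q between 0.44 and 0.733.

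Langerhans and dendritic cell markers differed between the second telogen and anagen groups alongside Irf1, Gbp2 and Usp18. Their sum was 121 in telogen cKO, 143 in telogen iKO and 104 FPKM in telogen WT cells, against 32.3 in anagen iKO and 19.6 FPKM in anagen Het cells. Most of it came from Cd74 and the H2 genes, in telogen WT cells 62.0 FPKM for Cd74, 14.7 for H2-Ab1, 13.1 for H2-Aa and 11.1 for H2-Eb1. The sum is thus mainly a measure of these genes. Cd207 (langerin), the defining gene of Langerhans cells, was 2.30 in telogen cKO, 4.35 in telogen iKO and 2.87 in telogen WT cells, against 0.433 in anagen iKO and 0.224 FPKM in anagen Het cells. The 10 T and NK cell markers found of 11 summed to 3.08 in telogen cKO, 5.65 in telogen iKO and 4.55 in telogen WT cells, against 1.93 in anagen iKO and 2.28 FPKM in anagen Het cells. Endothelial markers ran the other way, at 0.776 in telogen cKO, 0.336 in telogen iKO and 1.09 in telogen WT cells, against 4.49 in anagen iKO and 7.30 FPKM in anagen Het cells. The first telogen library had the highest Langerhans and dendritic sum, 298.5 FPKM, with Irf1 at 9.22, Gbp2 at 2.40 and Usp18 at 2.20 FPKM. It is a single library that stood apart from the other groups. No T or NK cell marker was called in either knockout table. The part of these cells in the interferon gene values was not tested.

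**Figure D3:**
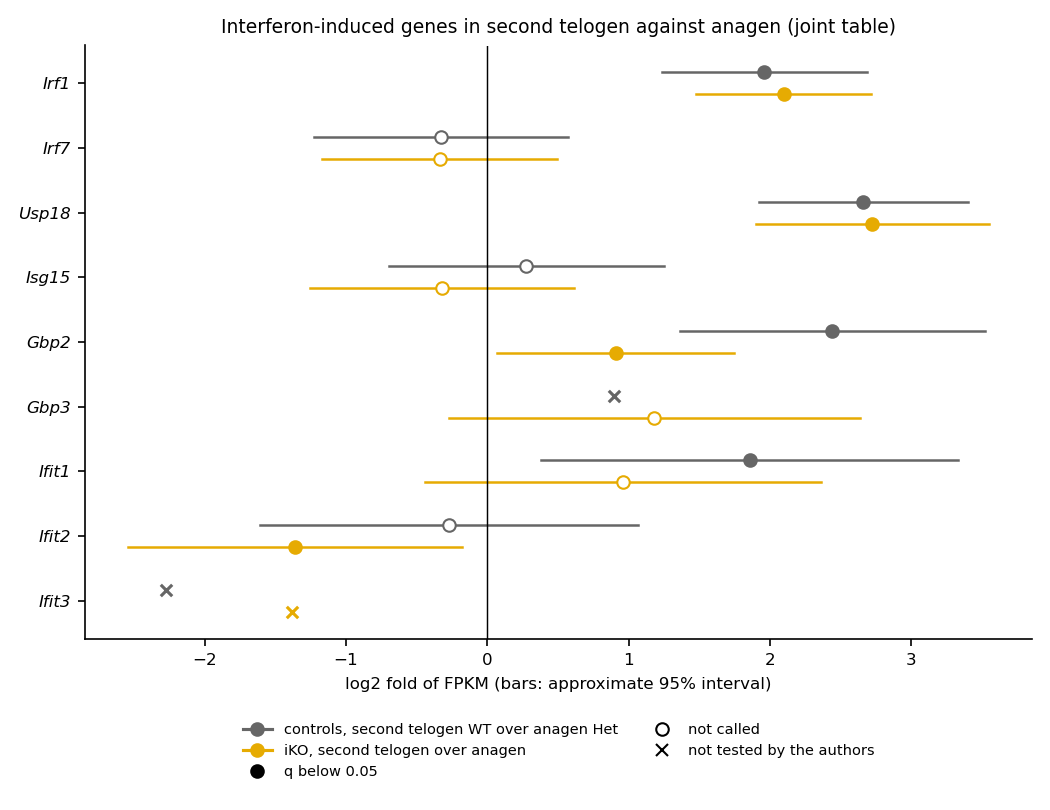
Log2 fold of FPKM, second telogen over anagen, for the 9 genes in controls (WT over Het, grey) and in iKO cells (yellow), with bars for the approximate 95% interval. Usp18 (2.66 and 2.72), Irf1 (1.96 and 2.10) and Gbp2 (2.44 and 0.91) are filled, with q below 0.05, in both, while Irf7 lies at -0.33 and -0.34 and is not. Genotype, strain, age and sex also differ between the control groups, and age between the iKO groups.

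The 2 Shh-Het libraries add a single-library view of the passage into growth, with no test. Taking genes past 2-fold on the FPKM + 1 scale with at least 1 FPKM in either library, 2 of 6 genes differed, against 22.7% of all genes (8.55% higher and 14.1% lower). Irf7 was 13.0 FPKM in anagen II against 1.64 in first telogen cells, a log2 ratio of 2.40. Irf1 was 3.78 in anagen II against 9.22 FPKM in first telogen cells, a log2 ratio of -1.10, no longer past 2-fold once the median over all genes was subtracted. Immune markers were lower there too, the Langerhans and dendritic cell list summing to 26.5 in anagen II against 298.5 FPKM in first telogen cells, the myeloid list to 22.7 in anagen II against 103 FPKM in first telogen cells, and the T and NK cell list to 2.12 in anagen II against 10.4 FPKM in first telogen cells. Fibroblast markers summed to 1038 in anagen II against 2168 FPKM in first telogen cells, while the highest replicated group, anagen Het, had 105 FPKM. The part of these cells in the Irf1 and Irf7 values was not tested. The lower Irf1 in anagen II has the direction seen between anagen Het and second telogen WT cells, whereas Irf7 did not differ by a call there.

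Second telogen WT and first telogen Shh-Het cells differed past 2-fold in 1 of 5 genes, against 14.6% of all genes (4.15% higher). Usp18 was 13.8 FPKM in second telogen WT against 2.20 in first telogen cells, a log2 ratio of 2.21. The high Usp18 of second telogen was thus not seen in the first telogen library, which differs in strain, age and genotype and stands apart as described above.

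Beyond the 9 genes, 6 lists held 107 further genes of the interferon pathway. In anagen, 6 of 63 tested genes were higher in iKO cells and none was lower, against 10.3% of all tested genes called. In second telogen, 6 of 67 were higher and 1 lower in cKO cells, against 6.62% of all tested genes. The joint table called 16 of 69 for the same groups, 15 higher and 1 lower, against 12.2% of all tested genes. The median over the lists on the log2(FPKM + 1) scale was 0.05 in anagen, beside -0.02 over all genes, and 0.06 in second telogen, beside 0.00.

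Among interferon-gamma-induced GTPases and chemokines, Cxcl9, a chemokine that draws in T cells, rose in anagen iKO and telogen cKO cells. It was 0.805 FPKM in anagen iKO against 0.159 in Het cells (log2 fold 2.34, SE 0.68, q = 0.00647) and 3.39 in telogen cKO against 0.868 FPKM in WT cells (log2 fold 1.96, SE 0.58, q = 0.00159). In telogen iKO cells it fell instead, to 0.349 FPKM, against 0.898 in WT cells (q = 0.0195). Both values of this comparison and both in anagen are under 1 FPKM. Its relative Cxcl10 rose in second telogen, at 5.70 in cKO against 1.77 FPKM in WT cells (q = 0.0341), and had 1.91 FPKM in anagen iKO against 0.492 in Het cells (q = 0.268). In this list, 1 of 8 tested genes was called in anagen, against 10.3% of all tested genes, and 2 of 9 in second telogen, against 6.62%.

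Of 12 receptors, JAK kinases and STATs, Ifngr2, the signalling chain of the interferon-gamma receptor, rose in anagen iKO and telogen cKO cells, at 32.1 in anagen iKO against 21.5 FPKM in Het cells (q = 0.0255) and 22.4 in telogen cKO against 12.04 FPKM in WT cells (q = 0.0121). It rose in telogen iKO cells as well, at 21.2 FPKM in iKO against 12.5 in WT cells (q = 0.00346). Ifnar2, a chain of the type I receptor and the docking site of Usp18, rose in second telogen, at 14.2 in cKO against 7.06 FPKM in WT cells (q = 0.0341). No other gene of that list was called in the anagen or telogen table. All 12 were tested, with 1 called in anagen, against 10.3% of all tested genes, and 2 in telogen cKO cells, against 6.62%. In telogen iKO against WT cells 2 of 12 were called, against 12.9%. There Ifngr1 rose beside Ifngr2, at 31.1 in iKO against 17.9 FPKM in WT cells. Of 13 interferon ligand genes found, the highest in a replicated group was Ifng at 0.0663 FPKM in telogen WT cells, and none was tested by the authors. In the first telogen library the ligands summed to 3.10 FPKM, none above the 0.522 FPKM of Ifna2. That single library also had the most gene models above 0, 21878, so low values there were not particular to ligands.

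Among 44 induced effectors, Ifitm3, a membrane protein that blocks virus entry, rose in anagen, at 150 in iKO against 73.1 FPKM in Het cells (log2 fold 1.03, SE 0.18, q = 0.00106). It had 179 in telogen cKO against 110 FPKM in WT cells and was not called (q = 0.059). In telogen iKO cells it rose, at 184 FPKM in iKO against 115 in WT cells (q = 0.00519). These q-values come from different tables and do not show a difference between the knockouts. Compared directly in the joint table, Ifitm3 was 186 FPKM in cKO against 184 in iKO cells (log2 fold 0.02, q = 0.964). Herc6, a ligase that attaches Isg15 in mouse, rose in anagen, at 0.336 in iKO against 0.125 FPKM in Het cells (q = 0.0352). Both Herc6 values are under 1 FPKM. In second telogen Sp100, a nuclear body protein, rose, at 1.25 in cKO against 0.121 FPKM in WT cells (q = 0.0193), and in telogen iKO cells at 0.572 FPKM in iKO against 0.126 in WT cells (q = 0.0144). Both Sp100 values of the iKO comparison are under 1 FPKM. Lgals3bp rose in telogen cKO cells, at 6.64 in cKO against 2.99 FPKM in WT cells (q = 0.0138). Trim25, a ubiquitin ligase of RNA sensing, fell, at 10.5 in cKO against 20.5 FPKM in WT cells (q = 0.00159), and fell in telogen iKO cells, at 9.23 FPKM in iKO against 21.4 in WT cells (q = 0.000444). These iKO values are from the joint table, and both knockouts share the WT libraries. In this list, 2 of 28 tested genes were called in anagen, against 10.3% of all tested genes. In telogen cKO cells 2 of 31 were called higher and 1 lower, against 6.62%. In telogen iKO cells 3 of 30 were called higher and 1 lower, against 12.9%.

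Of 12 nucleic acid sensors and adaptors, Mb21d1 (cGAS), which detects DNA in the cytoplasm, rose in anagen, at 2.08 in iKO against 0.968 FPKM in Het cells (q = 0.00507). Its adaptor Tmem173 (STING) rose as well, at 2.96 in iKO against 1.48 FPKM in Het cells (q = 0.0323). These were 2 of 10 tested genes, against 10.3% of all tested genes. The same number were tested in second telogen, where 6.62% of all tested genes were called. In second telogen no sensor was called, with Mb21d1 at 1.53 in cKO against 0.667 FPKM in WT cells (q = 0.0601) and Tmem173 at 1.43 in cKO against 0.622 FPKM in WT cells (q = 0.161), and none of the 7 other IRF genes was called in either table.

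**Figure D4:**
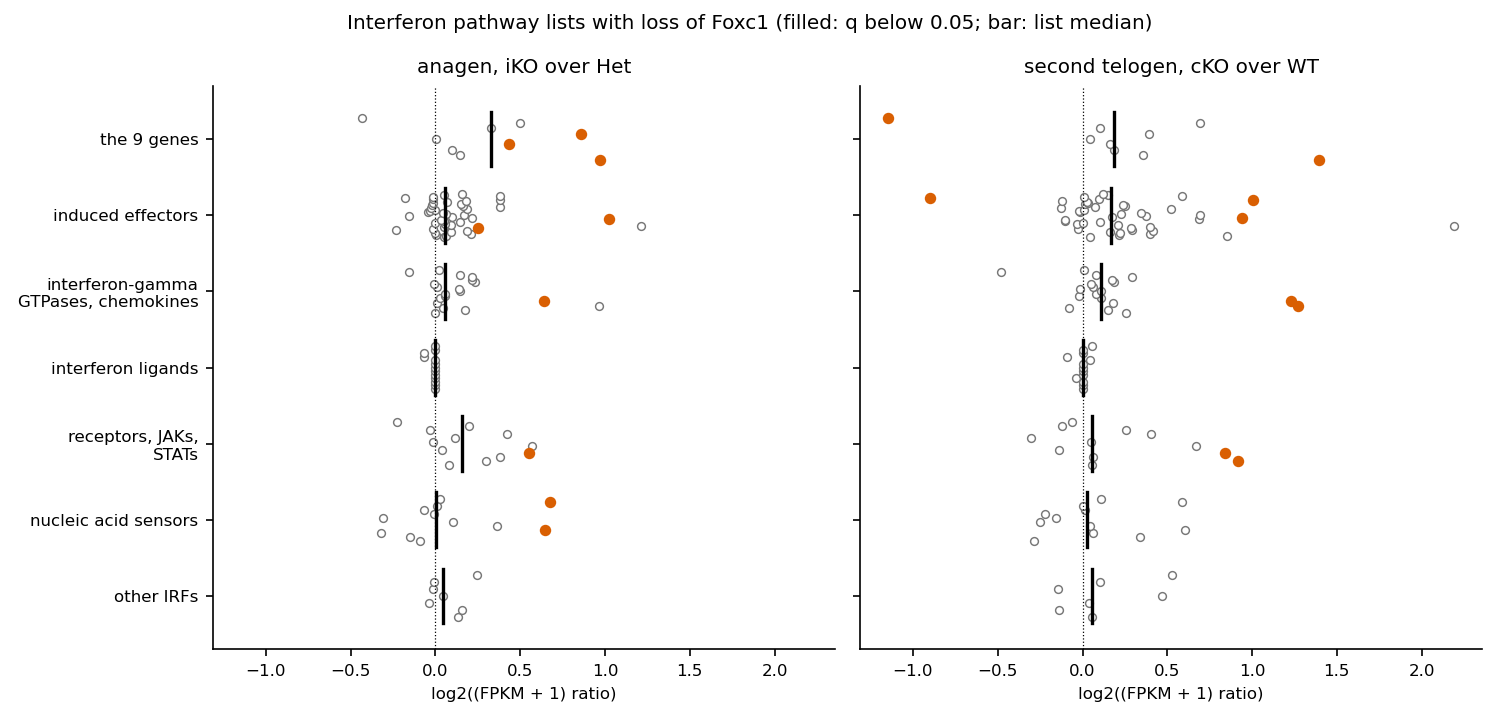
Log2((FPKM + 1) ratio) of every gene in the 9-gene set and 6 pathway lists, iKO over Het in anagen (left) and cKO over WT in second telogen (right). Filled points have a deposited q below 0.05 and the black bar is the list's median, 0.33 and 0.19 for the 9 genes.

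Profiles most like those of the 9 genes were sought among 14073 genes as the smallest root mean square difference of centred log2(FPKM + 1) over the 7 groups. The gene nearest to Irf1 was the class I antigen presentation gene H2-Q5 (difference 0.23), at 18.0 in telogen cKO, 18.1 in telogen iKO and 12.9 FPKM in telogen WT cells, against 4.74 in anagen iKO and 2.77 FPKM in anagen Het cells. The gene nearest to Gbp2 was H2-Q4 (0.29), at 132 in telogen cKO, 64.0 in telogen iKO and 56.5 FPKM in telogen WT cells, against 28.5 in anagen iKO and 17.1 FPKM in anagen Het cells. Both belong to a family of near-identical genes that may share reads. Usp18 was nearest to Dmpk (0.30), Irf7 to Tnik (0.17) and Isg15 to Cacna1g (0.15). For the low genes the nearest were 9430037G07Rik for Gbp3 (0.07), Btbd8 for Ifit1 (0.04), Trim27 for Ifit2 (0.06) and Il1rl1 for Ifit3 (0.03). These low profiles spanned only 0.67 to 0.90 in log2, and the mean profile of all 9 spanned 0.88, against 2.84 for Irf1 and 2.81 for Gbp2. Smaller differences there are therefore not closer matches. Il1rl1 was 1.03 FPKM in the first telogen library and at most 0.12 elsewhere, so that match rests on 1 library. The 6 genes nearest to the mean profile of all 9 were 1810037I17Rik, Plekhf1, Gpr160, Ormdl1, E330011O21Rik and Aim1l, at differences of 0.09 to 0.11, and none of these was among the pathway lists.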

How the data were processed

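mRNA sequencing of sorted hair follicle stem cells was read from 3 tables deposited by the authors. Per the submitters' processing notes, TopHat, Cufflinks, Cuffdiff and mouse build mm9 were used, while versions and settings are not given in the sources used here. Values were deposited by the authors in this form: FPKM as 1 pooled value per group and gene, a log2 fold change, a test statistic (a score) and p-values with q-values. The anagen and telogen tables hold 2 groups each and the joint one has 7 groups in 21 comparisons, with q adjusted over all of them. Tables were scaled separately, the joint table lying at -0.08 (anagen) and 0.06 (telogen) on the log2 scale, so tests stay within a table. Replicates are separate animals by the labels, but each p-value compares groups of 2 libraries, and depth is unknown.

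Here the SE was taken as log2 fold over statistic, with normal 95% intervals, and the stage difference as a two-sided z test (Python 3.11.15, pandas 2.3.3, SciPy 1.17.1). The z test was run on simulated folds drawn with these same SEs, which cannot show whether the SEs hold for the real data. The pseudocount was 1. Promoters are RefSeq, and transcript identity was computed with BLAST 2.17.0 on GENCODE M21. The 9 genes and all lists were chosen with earlier results of these data known. Named were the 9 genes, called genes of each pathway list (up to 6 by lowest p), the nearest profiles and Foxc1; marker lists are given by counts and sums. A test on library-level counts was not possible from pooled values. Alternatives were the joint table, q below 0.01, a minimum of 1 FPKM, other pseudocounts and adjustment within a comparison.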

Additional observations from a re-analysis of the deposited data

Results flagged for a closer look

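Within second telogen, the 2 knockouts differed from each other for 3 of 8 tested genes in the authors' deposited joint table, which tests that difference directly and calls 14.9% of all tested genes. The log2 fold of cKO over iKO cells was 1.40 for Gbp2, -0.73 for Irf1 and -0.68 for Usp18. The Usp18 call was lost on adjustment within the comparison. The groups differ in Cre driver, strain, age, tamoxifen and, for 1 cKO animal, sex, and these cannot be told apart.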

How the results depend on the processing

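No paired analysis was possible because each table holds 1 pooled value per group, and for the same reason no library could be left out in turn. The alternative of a second row per symbol was not run, since each gene was on 1 row. Of the results that answer a comparison, 21 values under alternatives stayed within their limits and 8 moved. All of these are counts, which cannot change sign. Some that stayed within limits still changed, such as 3 called genes in anagen becoming 2 at q below 0.01. For telogen iKO against WT cells, the 2 called genes became 1 (Irf1) at q below 0.01, over genes with at least 1 FPKM and on adjustment within the comparison. For iKO telogen against anagen, 4 called genes became 2 (Irf1 and Usp18) at q below 0.01. For anagen II against first telogen, 2 genes past 2-fold became 1 (Irf7) with a pseudocount of 5 and after subtracting the median over all genes. For second telogen WT against first telogen cells, 1 became 2 (Isg15 and Usp18) with a pseudocount of 0.1. Ifit2 in anagen, Ifit1 in telogen WT against anagen Het cells and Usp18 in cKO against iKO cells were not called at q below 0.01, nor was any of these 3 over genes with at least 1 FPKM, which leaves out Ifit1 and Ifit2. The wider lists had 16 calls in the joint table in place of 7 for telogen cKO against WT cells. Over all genes, the calls at q below 0.01 were 929 in place of 1408 for anagen, 574 in place of 897 for telogen cKO and 1015 in place of 1769 for telogen iKO against WT cells, and 1148 in place of 2041 for cKO against iKO cells. The joint table called 1677 genes for telogen cKO. The stage difference of the knockout effect was called in 129 genes, 46 with the larger of 2 SEs and 85 without genes whose p did not follow the statistic, and in none of the 6 tested genes of the set under either. With 1 added to FPKM the anagen log2 values of Gbp2 and Ifit2 were 0.97 and 0.43, and that of Gbp3 in second telogen 0.36, smaller than the authors' folds by construction.

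Levels under 1 FPKM (Gbp3, Ifit1, Ifit3 and mostly Ifit2) limit what can be read from these genes. The same holds for Herc6 and, in most groups, for Cxcl9 and Sp100. Values per library, depth and the authors' test settings are not given in the sources used here, and stage, driver, strain and age overlap between groups.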
